A study of Mus musculus with 9 samples.

Results

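The genes described here are 10 markers of smooth muscle cells and pericytes: Acta2, Actg2, Myh11, Tagln, Cnn1, Lmod1, Des, Synm, Hhip and Pdgfrb. They were chosen by name. Every array probe that is not a control and whose RefSeq transcript belongs to 1 of these symbols was taken, which gave 17 of the 56605 distinct probes. Each gene was then represented by its brightest probe among the 16843 genes tested.

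RNA came from the whole lungs of 9 mice, 1 array per lung, and the labels call the replicates biological. All mice carried floxed alleles of Terf1 (TRF1flox/flox), the gene of a telomere-binding protein, and all received tamoxifen (250 mg/kg each week) starting at an age of 8 weeks. The 3 control mice had no cre and were 11 months old when their lungs were taken, with 9 months of the drug behind them. The SPC-cre TRF1flox/flox mice, in which the promoter of surfactant protein C drives the recombinase, were either 5 months old with 3 months of the drug (3-month cre, n = 3) or 11 months old with 9 months of it (9-month cre, n = 3). SPC is a product of alveolar type 2 cells, so the cre is directed at the epithelium and not at smooth muscle. All controls were 11 months old, and for the 3-month lungs age and tamoxifen time cannot be told apart from the presence of cre.

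Smooth muscle surrounds airways and blood vessels, and its cells contract when myosin pulls on actin filaments after the myosin light chain is phosphorylated. Much of this contractile programme is switched on by serum response factor (SRF) with its partner myocardin, which bind a short sequence called a CArG box. Pericytes lie against the endothelium of capillaries and are recruited and kept there through the receptor PDGFRB. In the lung, hedgehog ligands from the epithelium signal to the mesenchyme around it, and HHIP, a hedgehog-binding protein made by mesenchymal cells, limits that signal.

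RefSeq promoter sequences on GRCm38.p6, covering 250 bases before and 50 bases after a gene's start, were at hand for 6 of the genes (Acta2, Cnn1, Des, Synm, Hhip and Lmod1). A script searched both strands for the CArG box, which is CC and GG around a core of 6 bases that are A or T, for the same box with 1 core base other than A or T, and for GACCACCCA, the consensus motif of the GLI factors of the hedgehog pathway. The strict CArG box was in 0 of 6 promoters, against 1.63% of the 32851 promoters in the table, and GACCACCCA was in 0 of 6, against 0.253%. The box with 1 other core base was in 2 of 6, against 8.5% of all promoters. Positions count from the start site of the window, which for Acta2 is not the outermost start in the gene annotation. The 2 were the promoters of Acta2, which holds 2 such boxes with first bases at -84 and -34, and of Synm, which holds 1 at -239. Both are shown because they are the ones with a match, with the boxes in capitals, 5′ to 3′ along the gene, which lies on the minus strand in each case (Acta2 at chr19:34255324-34255623, Synm at chr7:67759693-67759992). A match describes letters only.
Acta2: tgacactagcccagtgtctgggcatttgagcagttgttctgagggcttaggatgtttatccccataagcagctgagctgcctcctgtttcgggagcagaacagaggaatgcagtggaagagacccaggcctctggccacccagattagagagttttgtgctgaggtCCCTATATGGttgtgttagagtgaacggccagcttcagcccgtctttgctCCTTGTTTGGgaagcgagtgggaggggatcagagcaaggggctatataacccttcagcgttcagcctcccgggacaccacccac
Synm: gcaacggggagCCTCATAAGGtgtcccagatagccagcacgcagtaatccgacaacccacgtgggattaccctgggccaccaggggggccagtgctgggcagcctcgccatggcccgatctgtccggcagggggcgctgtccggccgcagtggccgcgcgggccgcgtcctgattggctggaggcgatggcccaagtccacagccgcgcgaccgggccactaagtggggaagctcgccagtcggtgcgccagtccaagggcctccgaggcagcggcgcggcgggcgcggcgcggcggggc

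Levels are given as log2 processed signal relative to the 75th percentile of the distinct probes on the same array, so they compare arrays for 1 gene and not genes with each other. All 17 probes were well above background on all 9 arrays, and 0 of their spots were saturated. The 75th percentile lay between 958 and 1430 intensity units, against a median local background of 28 to 35. The arrays lay on 2 slides. Slide 1 held the 3 controls and 3-month cre replicate 1, with 62.7% to 64.9% of probes well above background. Slide 2 held the other 5 cre arrays, with 67.9% to 72.4%. Xist and Y-linked probes read all 3 controls as male and each cre group as 1 male and 2 females. The parts of slide and sex in the results are given below only as values. Terf1 was at -0.52 ± 0.19 (SE of the fitted log2 fold change, n = 3 against 3) in 9-month cre lungs against controls (limma, adjusted p = 0.131), and where its probe lies in relation to the floxed part of the gene was not analysed here. Sftpc, the gene whose promoter drives cre, was between 7.89 and 8.60 on all 9 arrays and did not pass the test (0.34 ± 0.16, adjusted p = 0.222). In whole-lung RNA, fewer cells of a type and less RNA per cell cannot be told apart.

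The comparison at equal age and tamoxifen time was 9-month cre against control. Its controls all lay on slide 1 and its 9-month cre arrays all on slide 2, so slide and cre cannot be told apart within it. Sex was also unequal between these groups. All 10 genes had a fitted log2 fold change below 0. They ran from -0.98 for Synm to -0.23 for Pdgfrb, with a median of -0.66, while the median over all 16843 genes was 0.024 and 47.19% of them were below 0. None of the 10 passed the test (limma, Benjamini-Hochberg adjusted over all genes, adjusted p = 0.0538 to 0.548), where 6.45% of all genes were called at an adjusted p under 0.05. At an unadjusted p under 0.05, 4 of the 10 were lower (Myh11, Des, Synm and Hhip), against 12.5% of all genes. For 3 of them (Myh11, Synm and Hhip) every 9-month cre array lay below every control array, against 15.0% of all genes.

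**Figure D1:**
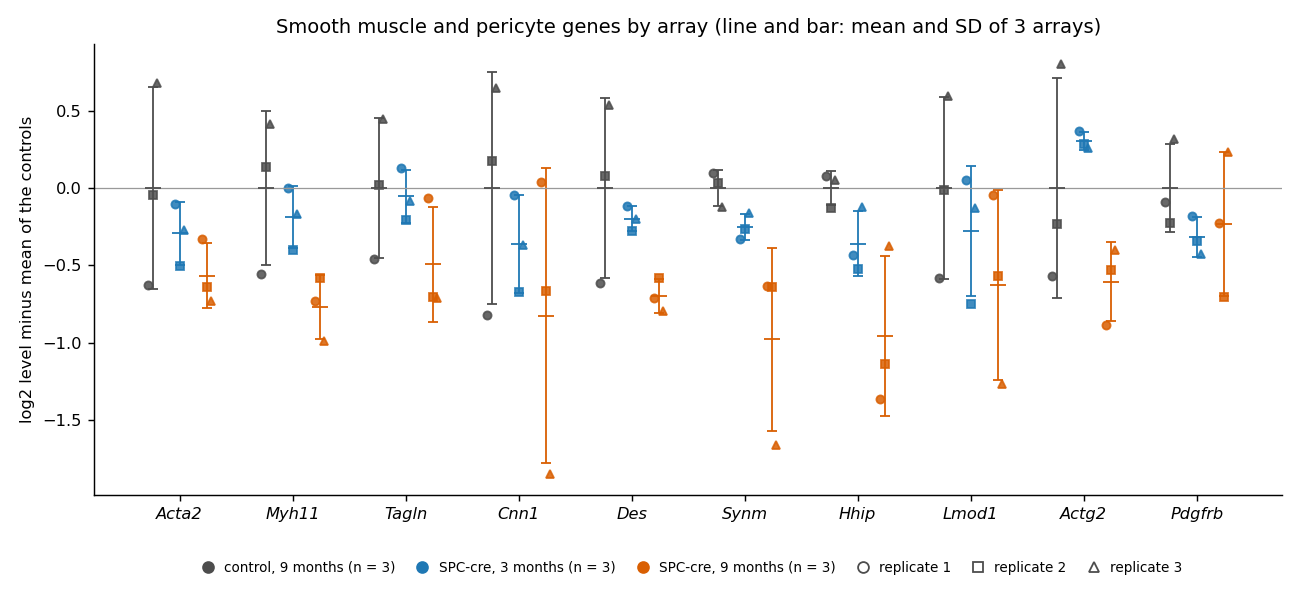
Levels of the 10 genes on each array, as log2 level minus the mean of the 3 controls (vertical axis), by gene (horizontal axis), with grey for controls, blue for 3-month cre and orange for 9-month cre, marker shapes for replicate numbers, and lines and bars for the mean and SD of 3 arrays. For Myh11, Synm and Hhip the orange points lie below all grey points, and the grey points of Acta2, Cnn1, Des, Lmod1 and Actg2 are spread over more than 1 log2 unit.

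Among the contractile proteins, Acta2 encodes smooth muscle alpha-actin, the actin isoform that fills the thin filaments of vascular smooth muscle. Its log2 level was 4.44, 5.02 and 5.74 in control replicates 1, 2 and 3, 4.96, 4.56 and 4.80 in the 3-month cre lungs, and 4.74, 4.43 and 4.33 in the 9-month cre lungs. Control replicate 3 was the highest array and 9-month cre replicate 3 the lowest, and control replicate 1 lay within the range of the 9-month cre arrays. The fitted log2 fold change was -0.57 ± 0.30 (SE, adjusted p = 0.250) at 9 months, a level 1.48-fold lower, and the groups overlapped.

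Actg2 encodes the gamma-actin typical of visceral smooth muscle. Its level was 1.32, 1.66 and 2.69 in controls, 2.26, 2.17 and 2.15 at 3 months, and 1.00, 1.36 and 1.49 at 9 months. The 3-month cre arrays lay close together above 2 of the 3 controls and above all 9-month cre arrays. Against controls, the difference was -0.61 ± 0.31 at 9 months (adjusted p = 0.244). Between the cre groups it was -0.91 ± 0.31 (unadjusted p = 0.0188 and adjusted p = 0.105 in limma).

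Myh11 encodes the smooth muscle myosin heavy chain, the motor protein found in few other cell types. Its level was 0.65, 1.35 and 1.62 in controls, 1.21, 0.81 and 1.04 in the 3-month cre lungs, and 0.47, 0.62 and 0.22 in the 9-month cre lungs. All 3 of the 9-month cre arrays lay below the other 6 arrays, although the step from 9-month cre replicate 2 to control replicate 1 was small. The difference from controls was -0.77 ± 0.24 (unadjusted p = 0.0129, adjusted p = 0.0919 in limma), or 1.70-fold lower.

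Tagln encodes transgelin (SM22), an actin-binding protein of smooth muscle. Its level was 4.93, 5.40 and 5.83 in controls, 5.52, 5.18 and 5.30 at 3 months, and 5.32, 4.68 and 4.67 at 9 months. Replicates 2 and 3 of the 9-month cre group were below all other arrays, and replicate 1 was within the control range. The difference from controls was -0.49 ± 0.26 (adjusted p = 0.247).

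Cnn1 encodes calponin, which binds actin and restrains the myosin motor. Its level was 3.78, 4.77 and 5.25 in controls, 4.56, 3.92 and 4.23 at 3 months, and 4.64, 3.93 and 2.75 at 9 months. The lowest array was 9-month cre replicate 3, and the other 9-month cre arrays were within the control range. Cnn1 had the widest spread of the 10 genes within the 9-month cre group (SD 0.96), and its difference from controls was -0.83 ± 0.51 (adjusted p = 0.320).

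Lmod1 encodes leiomodin, which nucleates actin filaments in smooth muscle. Its level was -3.50, -2.93 and -2.32 in controls, -2.87, -3.67 and -3.04 at 3 months, and -2.96, -3.49 and -4.18 at 9 months. Again 9-month cre replicate 3 was the lowest and control replicate 3 the highest array, and the groups overlapped. The difference from controls was -0.63 ± 0.39 (adjusted p = 0.321).

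Of the intermediate filament genes, Des encodes desmin, which ties the contractile units of muscle cells together and is also present in pericytes. Its level was -1.29, -0.60 and -0.14 in controls, -0.79, -0.96 and -0.88 in the 3-month cre lungs, and -1.39, -1.26 and -1.47 in the 9-month cre lungs. The 9-month cre arrays were all below the 3-month cre arrays, and control replicate 1 lay among them. The difference from controls was -0.70 ± 0.25 (unadjusted p = 0.0232, adjusted p = 0.122 in limma).

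Synm encodes synemin, a large filament protein that pairs with desmin or vimentin and links filaments to the membrane. Its level was 2.20, 2.13 and 1.97 in controls, 1.77, 1.84 and 1.94 at 3 months, and 1.46, 1.46 and 0.44 at 9 months. The 3 groups did not overlap: every 3-month cre array was below every control, and every 9-month cre array below every 3-month array. The difference at 9 months was -0.98 ± 0.26 (unadjusted p = 0.00465, adjusted p = 0.0583 in limma), or 1.97-fold lower. Unlike Acta2 and Myh11, the control arrays of Synm lay close together (SD 0.11, n = 3).

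Of the signalling genes, Hhip encodes the hedgehog-binding protein named above. Its level was 2.95, 2.75 and 2.93 in controls, 2.44, 2.35 and 2.75 at 3 months, and 1.51, 1.73 and 2.50 at 9 months. Every 9-month cre array was below every control, and 9-month cre replicate 3, the lowest array for 7 of the 10 genes, was here the highest of its group. The difference was -0.96 ± 0.24 (unadjusted p = 0.00384, adjusted p = 0.0538 in limma), or 1.94-fold lower, and it had the smallest adjusted p of the 10.

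Pdgfrb encodes the receptor that pericytes and smooth muscle cells use to sense PDGF-B from endothelium. Its level was 3.65, 3.51 and 4.06 in controls, 3.56, 3.39 and 3.31 at 3 months, and 3.51, 3.03 and 3.97 at 9 months. The groups overlapped throughout, and 9-month cre replicate 3 was the second highest array. The difference from controls was -0.23 ± 0.24 (adjusted p = 0.548), the nearest to 0 of the 10 genes.

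**Figure D2:**
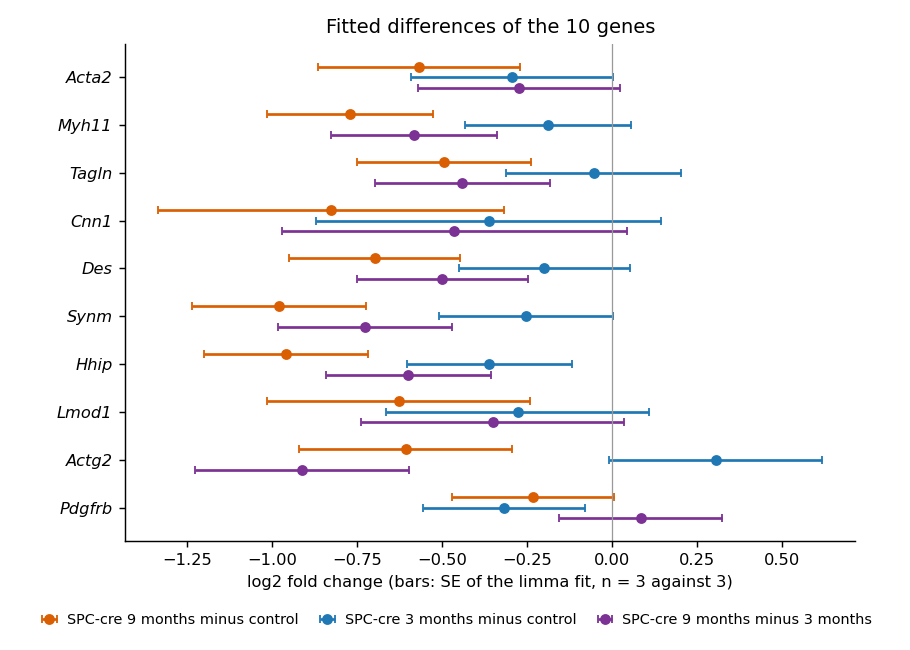
Fitted log2 fold changes of the 10 genes (horizontal axis, log2) with the SE of the limma fit as bars, n = 3 arrays against 3, in orange for 9-month cre minus control, blue for 3-month cre minus control and purple for 9-month cre minus 3-month cre. The orange points run from -0.98 for Synm to -0.23 for Pdgfrb, and Actg2 has the only blue point above 0, at 0.31.

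The call for the 9-month comparison moved with the processing. Hhip was called with normexp background correction, quantile normalization, median scaling and the authors' deposited values (adjusted p = 0.0428 to 0.0493 in limma). Leaving out control replicate 1 gave calls for Myh11 and Des, leaving out 9-month cre replicate 2 gave a call for Synm, and leaving out 9-month cre replicate 3 gave calls for Synm and Hhip. The median of the 10 genes was -0.38 without control replicate 3 and -0.42 with the slide as a block, where 0 of 16843 genes were called. With sex as a covariate it was -0.66, and again 0 genes were called.

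The 3-month comparison asked what differed at the early collection. The 10 genes had a median log2 fold change of -0.26, against 0.054 over all genes, and 9 of them were below 0. None passed the test (limma, adjusted p = 0.451 to 0.932), where 0.451% of all genes were called, and 0 were lower at an unadjusted p under 0.05, against 7.09%. Groups did not overlap for Synm alone, 1 of 10, against 11.4% of all genes.

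By role, the contractile genes at 3 months stood at -0.29 for Acta2, -0.19 for Myh11, -0.053 for Tagln, -0.36 for Cnn1, -0.28 for Lmod1 and 0.31 for Actg2. The filament genes were at -0.20 for Des and -0.25 for Synm, and the signalling genes at -0.36 for Hhip and -0.32 for Pdgfrb. Without control replicate 3, the median became 0.020. It was -0.41 without control replicate 1, -0.17 without 3-month cre replicate 2 and -0.073 with the slide as a block.

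Between the cre groups, which differ in age and tamoxifen time, 9 of the 10 genes were lower at 9 months, with a median of -0.48 against -0.029 over all genes. Again 0 were called (limma, adjusted p = 0.105 to 0.849), where 4.99% of all genes were. Myh11, Synm, Hhip and Actg2 were lower at an unadjusted p under 0.05, 4 of 10 against 16.0% of all genes. Every 9-month cre array lay below every 3-month cre array for Myh11, Des, Synm and Actg2, 4 of 10 against 19.0%. Actg2 had the largest difference (-0.91), followed by Synm (-0.73 ± 0.26, adjusted p = 0.111), Hhip (-0.60 ± 0.24, adjusted p = 0.149) and Myh11 (-0.58 ± 0.24, adjusted p = 0.162). Pdgfrb was at 0.085. Actg2 was called without control replicate 3 (adjusted p = 0.0268) and when the 2 cre groups were fitted alone (adjusted p = 0.0496), and Hhip without 9-month cre replicate 3 (adjusted p = 0.0333). The comparisons share arrays, so their values are set side by side only.

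Across arrays, the same lungs tended to be high or low for many of the genes. Control replicate 3 was the highest of the 9 arrays for 8 of the 10 genes, all but Synm and Hhip, and 9-month cre replicate 3 was the lowest for 7. Control replicate 1 lay below the control mean for 8 genes and control replicate 3 above it for 9. On the 9-month cre arrays, 9, 10 and 9 of the 10 genes lay below the control mean, with mean differences of -0.50, -0.68 and -0.86 on replicates 1, 2 and 3. On the 3-month cre arrays it was 6, 9 and 9 genes, with mean differences of -0.066, -0.37 and -0.17.

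The contractile genes varied together. Over the 9 arrays, which share group and slide, the 15 pairs of contractile genes had Pearson r between 0.42 and 0.97, with a median of 0.85, and the closest was Cnn1 with Lmod1. Across roles, Des followed Myh11 (r = 0.97). Hhip had r between 0.069 and 0.56 with the 8 genes other than Pdgfrb, with a median of 0.39, and Pdgfrb ranged from -0.22 to 0.51 over its 9 pairs. Synm and Hhip ordered the arrays within each group differently. In the 9-month cre group, replicate 3 was the lowest for Synm and the highest for Hhip. In the other groups the same array was highest for both, control replicate 1 and 3-month cre replicate 3, but the lowest array differed.

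The further probes of a gene gave a check on the values. All 17 probes were below 0 in the 9-month comparison, from -1.83 ± 0.60 for the second Cnn1 probe to -0.23 for Pdgfrb. None was called over the 37647 probes kept, where 3.49% were called, and the smallest adjusted p in limma was 0.0578, for a Synm probe on transcript NM_183312 (-1.19 ± 0.28). At an unadjusted p under 0.05, 9 of the 17 were lower, against 11.1% of probes. Probes of 1 gene share its transcripts and are not independent.

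**Figure D3:**
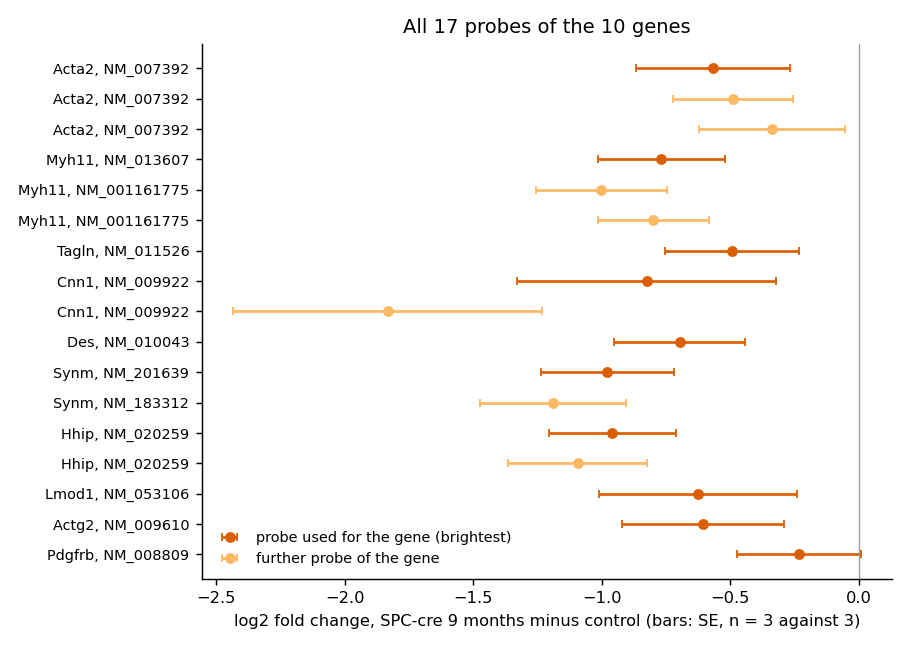
Log2 fold change of each of the 17 probes, 9-month cre minus control (horizontal axis, log2), with SE bars, n = 3 arrays against 3, named by gene and RefSeq transcript, in dark orange for the probe used for the gene and light orange for further probes. All points lie left of 0, and the second Cnn1 probe, at -1.83, lies farthest from it.

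For 8 of the 17 probes every 9-month cre array lay below every control. Over genes that share was 15.0%, and it was not computed over all probes. The 3 Myh11 probes, which lie on 2 transcripts, were at -0.77, -1.002 and -0.80, and 9-month cre arrays were below controls for each. The 2 Hhip probes were at -0.96 and -1.09 and followed each other closely over the arrays (r = 0.98). The 2 Synm probes also varied together (r = 0.95). The second Synm probe was the dimmer, at -2.75 to -2.22 in controls and -4.36 to -3.18 in 9-month cre lungs. The Cnn1 probes differed in size (-0.83 and -1.83, r = 0.87 over the arrays). The second was far dimmer, at -2.69 to -0.47 in controls and -4.27 to -2.80 in 9-month cre lungs. The first was at 3.78 to 5.25 and 2.75 to 4.64. On the first Cnn1 probe, the 9-month cre and control arrays overlapped, and on the second every 9-month cre array lay below every control.

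The Acta2 probes did not all behave alike. The third probe followed the main one (r = 0.90 over 9 arrays), but the probe A_51_P450957 had r = 0.51 with the main Acta2 probe and r = 0.96 with the Actg2 probe. Its level was 2.17, 2.32 and 2.94 in controls, 3.01, 2.77 and 2.79 in 3-month cre lungs and 1.65, 1.99 and 2.31 in 9-month cre lungs. Its 3-month cre arrays lay above its 9-month cre arrays, as for Actg2, with a difference of -0.87 ± 0.23 between the cre groups (adjusted p = 0.0584 over all probes). The 2 actins are close relatives, the probe sequences were not used here, and which transcript this probe reads was not tested.

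The genes that act with these members were taken as lists. The wider contractile apparatus has 16 genes, all measured. None was called at 9 months against controls in limma, and the median was -0.18. At an unadjusted p under 0.05, 2 were higher and 4 lower, where 12.5% of all genes were lower. Mylk, the kinase that phosphorylates the myosin light chain, was at -0.58 ± 0.15 (adjusted p = 0.0539), and Ppp1r14a, an inhibitor of the phosphatase that reverses that step, at -0.69 ± 0.21 (adjusted p = 0.0818), with groups apart for both. Both were picked for a small p in this same comparison, and 15.0% of all genes were apart and lower. Kcnmb1, the smooth muscle subunit of a calcium-activated potassium channel, was at -0.80 ± 0.29 (adjusted p = 0.125). In the other direction Actn1, which cross-links actin and is made in many cell types, was at 0.33 ± 0.11 (adjusted p = 0.104).

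Of the 13 transcription factors of smooth muscle and lung mesenchyme, 0 were called, and the median was -0.11. At an unadjusted p under 0.05, 1 was higher and 4 were lower, where 12.5% of all genes were lower. Srf itself was at -0.034 ± 0.14 and Myocd at -0.42 ± 0.41, and their 9-month cre and control arrays overlapped. Mrtfa, an actin-sensing partner of SRF, was at 0.39 ± 0.12 (adjusted p = 0.0874), and the mesenchymal factors Tbx5, Tcf21 and Tbx4 at -0.53, -0.65 and -0.30 (adjusted p = 0.0877, 0.112 and 0.148).

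Further pericyte genes went in both directions, with a median of -0.023 and values from -0.69 to 0.66. Of these 13 genes, 7 were below 0, 0 were called and 1 was lower at an unadjusted p under 0.05. The shares over all genes were 47.19%, 6.45% and 12.5%. Gucy1b1 and Gucy1a1, the subunits of the nitric oxide receptor guanylate cyclase, were at -0.69 ± 0.18 (adjusted p = 0.0566) and -0.36 ± 0.16 (adjusted p = 0.197). Abcc9, a subunit of the potassium channel of pericytes, was at -0.28 ± 0.13, and the adhesion molecule Mcam at 0.39 ± 0.20. Whether this list differs from the 10 markers was not tested.

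In the PDGF list, 0 of 6 ligands and receptors were called, 0 had an unadjusted p under 0.05, and the median was -0.14. The receptor Pdgfra was at -0.33 ± 0.22, the receptor-like Pdgfrl at -0.37 ± 0.28, the ligand Pdgfd at -0.24 ± 0.31 and Pdgfb, the endothelial ligand of PDGFRB, at 0.055 ± 0.25. The values of Pdgfb and Pdgfd changed sign under some settings.

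In the hedgehog pathway, to which Hhip belongs, 12 of 14 genes were below 0, against 47.19% of all genes, with a median of -0.26. Of the 14, 0 were called and 5 were lower at an unadjusted p under 0.05, against 12.5% of all genes. The 4 with the smallest p bind or pass on the signal: Gas1, Cdon and Boc, which are co-receptors, at -0.57 ± 0.15, -0.54 ± 0.16 and -0.63 ± 0.20 (adjusted p = 0.0612, 0.0790 and 0.0922), and the transducer Smo at -0.30 ± 0.11 (adjusted p = 0.117). Their 9-month cre arrays were all below the controls, as for 15.0% of all genes. The 4 were picked by p in this same comparison, so that separation is a description only. Gli1 and Ptch1, targets that hedgehog signalling raises as it does Hhip, were at -0.16 ± 0.19 and -0.41 ± 0.34, and the ligand Shh at -0.092 ± 0.23, all with overlapping groups. At 3 months against controls 13 of the 14 genes were below 0, against 42.43% of all genes, with a median of -0.16.

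Of the 4 other actins, 0 were called and 1, Actc1, was lower at an unadjusted p under 0.05, against 12.5% of all genes. The heart isoform Actc1 was at -0.996 ± 0.43 (adjusted p = 0.176), the skeletal isoform Acta1 at -0.34 ± 0.33, and the cytoplasmic Actb and Actg1 at 0.24 ± 0.15 and 0.089 ± 0.19. The signs of Actb and Actg1 turned with quantile normalization, with the deposited values and with the slide as a block.

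Among the filament partners, 1 of 7 was called, against 6.45% of all genes. Vim, vimentin, the filament protein of mesenchymal cells and leukocytes, rose by 0.63 ± 0.15 (limma, adjusted p = 0.0451), from 5.59, 5.50 and 5.41 in controls to 6.07, 6.02 and 6.32 in 9-month cre lungs. That call was lost under 15 of 20 alternatives, and with the slide as a block the value was 0.19. The chaperone Cryab, the linker Plec and dystrophin (Dmd) were at -0.43 ± 0.15, 0.36 ± 0.14 and -0.45 ± 0.23.

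**Figure D4:**
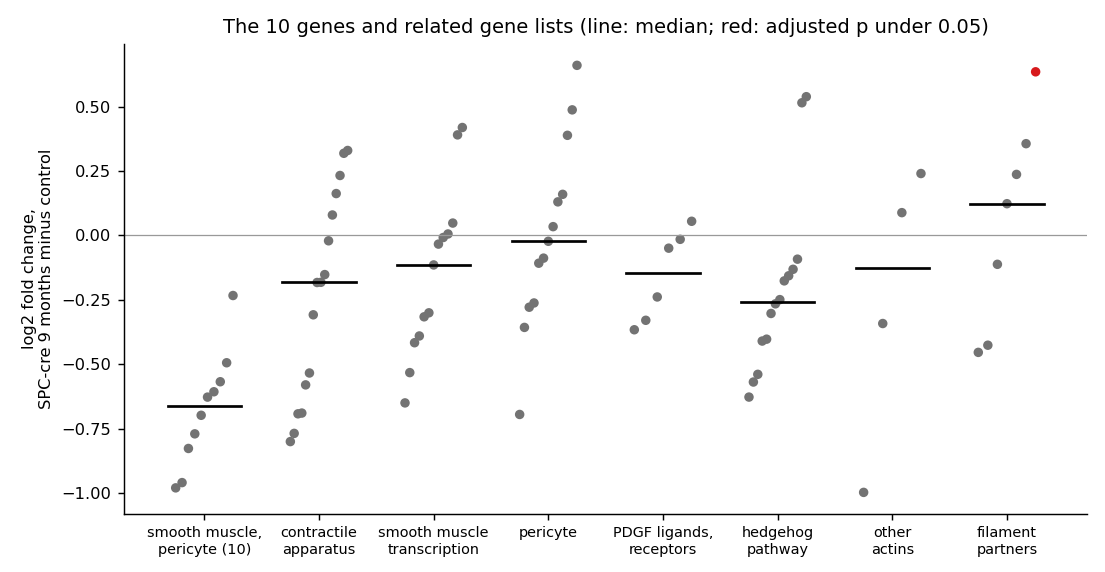
Log2 fold change of each measured gene, 9-month cre minus control (vertical axis, log2), for the 10 genes and the 7 related lists (horizontal axis), with a line at each median and red for an adjusted p under 0.05 in limma. The medians are -0.66 for the 10 genes, -0.18 for the contractile apparatus and -0.26 for the hedgehog pathway, and Vim is the only red point.

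Markers of other cell types also differed across these arrays. Heart muscle, which can be carried over when lungs are dissected and lines the pulmonary veins of the mouse, has 15 listed markers, all measured. Their mean log2 level was 0.78, 1.87 and 2.53 in control replicates 1, 2 and 3, in the same order as Acta2. It was 1.28, 0.47 and -0.14 at 3 months and 1.13, 1.05 and 0.77 at 9 months. The same order of the controls held for skeletal muscle (-1.79, -1.15 and -0.67), other actins (3.62, 3.91 and 4.51) and activated fibroblasts (1.31, 1.46 and 2.17). With smaller steps it held for the contractile apparatus (3.05, 3.19 and 3.50), PDGF ligands and receptors (1.43, 1.52 and 1.68) and further pericyte genes (1.62, 1.66 and 1.90). Alveolar fibroblast, endothelial and leukocyte lists did not show it. The summed level of the heart markers, in multiples of the 75th percentile, was 78.8 to 254 in controls, 35.9 to 104 at 3 months and 76.1 to 99.8 at 9 months. The list median was -0.84 at 9 months against controls and -1.52 at 3 months. At 9 months 1 of 15 was called, against 6.45% of all genes: Myh7, a heart myosin, at -1.55 ± 0.31 (adjusted p = 0.0297 in limma). At 3 months 0 of 15 were called, against 0.451% of all genes. There 11 of 15 were lower at an unadjusted p under 0.05, against 7.09% of all genes. With the slide as a block the 9-month medians were 0.48 for the heart list and -0.42 for the 10 genes. That fit links the slides only through 3-month cre replicate 1, whose heart level (1.28) was the highest of its group. The part of carried-over muscle in the values of the 10 genes was not tested.

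Alveolar fibroblast markers, from mesenchymal cells of the alveolar wall, had a median of -0.78 at 9 months, and 5 of 10 fell: Itga8, Fgf10, Col13a1, Npnt and Meox2. For this list and the next 2, the share called over all genes was 6.45%. The mean level of the fibroblast list was 2.53, 2.27 and 2.52 in controls and 1.58, 1.85 and 1.55 in 9-month cre lungs, with no overlap. Its summed level was 91.9 to 104 and 48.7 to 75.7. The leukocyte list stood at a median of 0.79 with 3 of 8 genes that rose (Cd68, Tyrobp and Itgb2), with a summed level of 82.1 to 98.6 in controls and 137 to 179 at 9 months. Endothelial markers had a median of -0.15, and 1 of 10 fell, the VEGF receptor Kdr (-0.96 ± 0.16, adjusted p = 0.0199 in limma), with a summed level of 326 to 356 and 309 to 348. These 9 calls and that of Myh7 were lost with the slide as a block and with sex as a covariate, but each value kept its sign. The alveolar fibroblast median was -0.68 with the slide and -0.86 with sex, and the leukocyte median 0.57 and 0.90. Kdr was at -0.71 and -0.87, and Myh7 at -1.44 and -1.43. The part of these shifts in the values of the 10 genes was not tested.

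Of the remaining lists, 0 genes were called at 9 months against controls among 7 measured of 11 skeletal muscle markers, 6 of 6 for mesothelium, 2 of 5 for cartilage, 7 of 8 for activated fibroblasts, 7 of 7 for alveolar type 2 cells and 6 of 6 for airway epithelium. At an unadjusted p under 0.05 in either direction these lists had 2, 2, 1, 2, 2 and 0 genes in the same order, against 4603 of all 16843 genes. The skeletal markers not above background were Myh1, Myh2, Myh4 and Actn3, the adult fast myosins and a fast-fibre actinin.

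**Figure D5:**
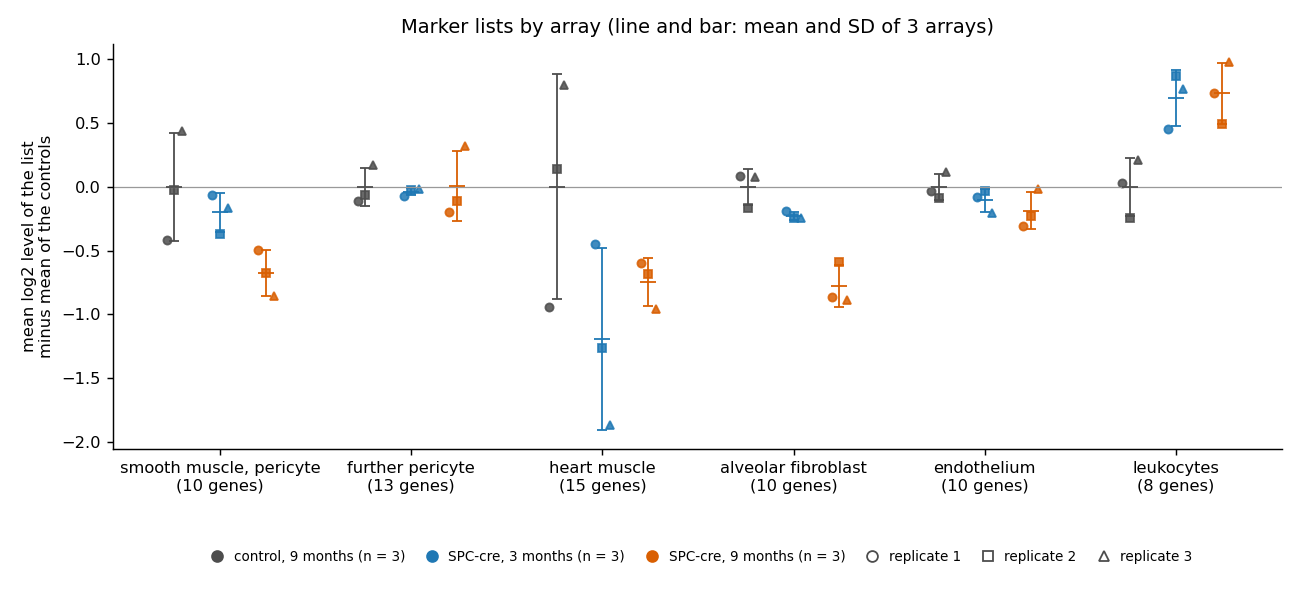
Mean log2 level of each marker list on each array minus the mean of the 3 controls (vertical axis), by list (horizontal axis), with grey for controls, blue for 3-month cre and orange for 9-month cre, marker shapes for replicate numbers, and lines and bars for the mean and SD of 3 arrays. The heart list and the further pericyte list both spread over the controls in the same order as the 10 genes, the heart list far more widely. The alveolar fibroblast list has all 9-month cre arrays below all controls.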

How the data were processed

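Per the file headers, the authors' scanner files hold signal intensity per spot from Agilent Feature Extraction 10.7.3.1, with background subtracted within each array and no scaling between arrays. The authors' deposited table holds intensity brought to nearly the same distribution on every array, by a tool that no source used here names, and served as an alternative. Flags for dim, saturated and irregular spots came from the deposited files' other columns.

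Of 62976 spots, 59305 were not controls. Spots flagged as irregular were left out, spots of a probe were averaged, and log2 signal was taken relative to the array's 75th percentile over distinct probes. A probe was kept if it was well above background throughout 1 or more groups (37647 of 56605). RefSeq transcripts gave 32994 probes a symbol, and 23611 had none. A gene took its probe with the highest mean, which left 16843 genes. All 3 groups were fitted in limma 3.58.1 (R 4.3.3, package data.table in version 1.17.8) with 6 residual degrees of freedom, and p-values were adjusted by Benjamini-Hochberg over all genes within a comparison. The fit was checked on simulated data.

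The 10 genes, the lists and the alternatives were chosen with earlier results of these data known. Named genes are the 10, up to 4 of each related list with the smallest p at 9 months and any gene called there, Terf1, Sftpc and the 8 genes most correlated with the 10, of which 1 is not reported here. Srf, Myocd, Gli1, Ptch1, Shh and the called cell markers were named after their values were seen. Alternatives were normexp (offset 50), quantile normalization, median scaling, the deposited values, other filters, the mean over a gene's probes, slide, sex and replicate number as terms, single slides, fits of only the groups compared, and leaving out each array. Precision is limited by the 3 arrays per group.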

Additional observations from a re-analysis of the deposited data

Results flagged for a closer look

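Actg2 stood on opposite sides of the control mean in the cre groups: all 3 of the 3-month cre arrays were above it and all 3 of the 9-month cre arrays below it. The difference between the cre groups was -0.91 ± 0.31 (SE, n = 3 against 3, adjusted p = 0.105 in limma), which is not a call. The control arrays themselves ran from 1.32 to 2.69, and the 3-month cre arrays from 2.15 to 2.26.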

How the results depend on the processing

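At 9 months against controls the median of the 10 genes stayed below 0 under all 20 alternatives, between -0.73 and -0.42 over the 11 that keep all arrays and between -0.92 and -0.38 when 1 array was left out. At 3 months it was -0.30 to -0.073 and, with 1 array left out, -0.41 to 0.020. Between the cre groups it was -0.54 to -0.40 and -0.62 to -0.36. The number of the 10 called was 1 at 9 months (Hhip) with normexp, quantile normalization, median scaling and the deposited values, and 1 between the cre groups (Actg2) with only those groups fitted. With 1 array left out it was 0 to 2 at 9 months, 0 to 0 at 3 months and 0 to 1 between the cre groups.

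Genes called over the whole array, in the order 9 months, 3 months and between cre groups, were 1087, 76 and 840. They were 0, 0 and 0 with the slide as a block, 0, 0 and 234 with sex as a covariate, 489, 14 and 104 with no filter on dim probes, and 185, 389 and 335 with only the groups compared. For 3 months there were 49 with normexp, 43 with the deposited values, 45 with probes well above background on all arrays and 4 on slide 1 alone. Between the cre groups there were 427 with median scaling and 0 on slide 2 alone. With 1 array left out the counts were 158 to 1638, 1 to 322 and 0 to 1224. The cause of these shifts was not tested.

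Replicate numbers did not pair the arrays (r of deviations -0.24 to 0.045). With the replicate block, 317, 42 and 6 genes were called and 0 of the 10.

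Of 200 recomputed values of the 10 genes at 9 months, 190 kept sign and side of the threshold and 9 became calls. Of 960 values of the other named genes, 782 kept both and 138 lost a call. Some signs turned. At 3 months this was Acta2 (0.049) with the mean over probes, Tagln (0.085) with sex, and Myh11 (0.0015), Tagln (0.13) and Lmod1 (0.049) with the slide as a block and on slide 1 alone. Among other genes at 9 months, with quantile normalization Pdgfb was -0.10, Actb -0.13 and Actg1 -0.080. Pdgfb was -0.0034 with median scaling. With the deposited values Sftpc was -0.012, Pdgfb -0.077, Actb -0.14 and Actg1 -0.031, and with the slide as a block Sftpc was -0.16, Pdgfd 0.14, Actb -0.091 and Actg1 -0.13.

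With 1 array left out, values at 3 months ran from -0.61 to 0.045 for Acta2, -0.47 to 0.020 for Myh11, -0.28 to 0.17 for Tagln, -0.51 to 0.069 for Des and -0.57 to 0.020 for Lmod1, each with its highest value without control replicate 3. Tagln was also 0.024 without 3-month cre replicate 2. At 9 months they ran from -0.46 to 0.0029 for Pdgfrb (without 9-month cre replicates 3 and 2), -0.60 to 0.065 for Pdgfd, -0.17 to 0.37 for Pdgfb, -0.68 to 0.069 for Acta1 and -0.065 to 0.24 for Actg1. Between the cre groups they ran from -0.90 to 0.049 for Cnn1 and -0.15 to 0.32 for Pdgfrb. The slide fit rests on 3-month cre replicate 1, the only cre array on the slide of the controls, and each group had 3 arrays.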

Other observations

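Away from the 10 genes, genes whose level closely followed the mean standardised level of the 10 over the 9 arrays, which share group and slide, were Dner (Pearson r = 0.99), Khdrbs3 (0.99), Sh3bgr (0.98), H2bc21 (0.97), Slc8a2 (0.95), Tceal3 (0.95) and Zfp846 (0.95). They were chosen for that likeness out of 16843 genes, so the values are a description. Of these, Dner fell by 1.24 ± 0.30 (SE, n = 3 against 3, adjusted p = 0.0490 in limma) and Zfp846 fell by 0.53 ± 0.12 (adjusted p = 0.0418) at 9 months against controls. Each of these calls was lost under 17 of 20 alternatives, with values of -1.58 to -0.88 for Dner and -0.64 to -0.21 for Zfp846. Sh3bgr was at -1.43 ± 0.38 and was not called (adjusted p = 0.0614). Each of the 10 genes was also set against the mean of the other 9: r was 0.95 for Des, 0.94 for Myh11 and 0.93 for Acta2, and lowest for Synm (0.57), Hhip (0.47) and Pdgfrb (0.25).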
